A study of Sus scrofa with 8 samples.

Results

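The troponin and tropomyosin genes encode the calcium switch of the muscle thin filament. The 10 members were taken by name from the deposited count table: TNNC1, TNNC2, TNNI1, TNNI2, TNNI3, TNNT1, TNNT2, TNNT3, TPM1 and TPM2, and each name matched 1 of the 31014 listed genes. They were read in heart tissue of wild-type miniature pigs given vehicle (n = 3) or doxorubicin (n = 5), an anthracycline used against cancer that is known to damage the heart. No other allele or agent is named in the labels. Dose, schedule, age, sex and heart chamber were not given in the sources used here. Nothing says that each sample is a different animal, and the p-values then cover no more than the spread among these libraries.

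In striated muscle, tropomyosin lies along the actin filament and covers the sites where myosin binds. Troponin C binds calcium, troponin I holds the filament in the blocked state and troponin T ties the complex to tropomyosin. Each subunit has separate genes for muscle types. TNNC1 serves heart and slow skeletal muscle, TNNI3 and TNNT2 are the cardiac inhibitory and tropomyosin-binding subunits, TNNI1 and TNNT1 are the slow skeletal forms, and TNNC2, TNNI2 and TNNT3 are the fast skeletal forms. TNNI1 is also known as the troponin I of the fetal heart. TPM1 encodes alpha-tropomyosin, the main form of the heart, and TPM2 encodes beta-tropomyosin.

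Libraries held 16105242 to 18267178 counts, and the members together took 1.18% to 1.70% of the counts in vehicle and 1.21% to 2.10% after doxorubicin. Doxorubicin 5 was least like its own group (mean correlation 0.901, where its fellow libraries had 0.932 to 0.950). Markers of cardiomyocytes were abundant in all 8 libraries, led by MYH7 (33631 ± 2744 CPM in vehicle, SD, n = 3), where CPM are counts scaled to TMM-adjusted library size. Of 17 skeletal muscle markers found, 11 had no read in vehicle, among them the fast myosins MYH1, MYH2 and MYH4 and the factors MYOD1 and MYOG. PVALB, MYF6 and PAX7 had none in any library. The cardiomyocyte markers summed to 70349 to 72351 CPM in vehicle and to 35471 to 69562 CPM after doxorubicin. By the test described below, 1 of the 13 found rose, 3 fell and 9 did not pass, MYH7 among them. Of all tested genes 13.6% were called higher and 11.3% lower. In bulk tissue, fewer cells of a type and less RNA per cell cannot be told apart.

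The members fell into abundant and scarce genes, by type of muscle. Compared per length (CPM per kilobase of the gene model listed by the authors), vehicle hearts held TNNC1 at 8456 ± 2568, TNNT2 at 2919 ± 750, TNNI3 at 934 ± 194, TPM1 at 706 ± 87.7 and TPM2 at 355 ± 29.8 (SD, n = 3). The slow skeletal TNNT1 followed at 14.2 ± 4.96, TNNI1 at 0.466 ± 0.423 and the fast skeletal TNNC2 at 0.144 ± 0.249, while TNNI2 and TNNT3 had no read in vehicle. TNNI3 and TPM1 overlapped in range (711 to 1066 against 624 to 798), as did TNNI1 and TNNC2. This order depends on the listed models, which run from 482 bases for TNNC2 to 5985 bases for TPM1 and give TNNI3 5440 bases and TNNC1 497. After doxorubicin the first 3 places by mean were again TNNC1, TNNT2 and TNNI3, at 8144 ± 1461, 4527 ± 983 and 696 ± 262 (SD, n = 5). In doxorubicin 3, however, TNNI3 at 258 lay below TPM1 at 404 and TPM2 at 302.

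Of the 10 members, 8 had enough reads to be tested. After doxorubicin TNNT1 and TNNI2 rose, no member fell and 6 did not pass. Among all 14938 tested genes 13.6% were called higher and 11.3% lower (24.9% in all, adjusted p under 0.05 by edgeR's quasi-likelihood test with Benjamini-Hochberg adjustment over all tested genes), so 2 of 8 is near the background share. TNNI2 passed the filter on low counts only through its doxorubicin libraries. Groups did not overlap for TNNT1, TNNI2 and the untested TNNC2, each higher after doxorubicin, where 17.1% of all tested genes lay wholly higher and 17.8% wholly lower (34.9% in all).

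**Figure D1:**
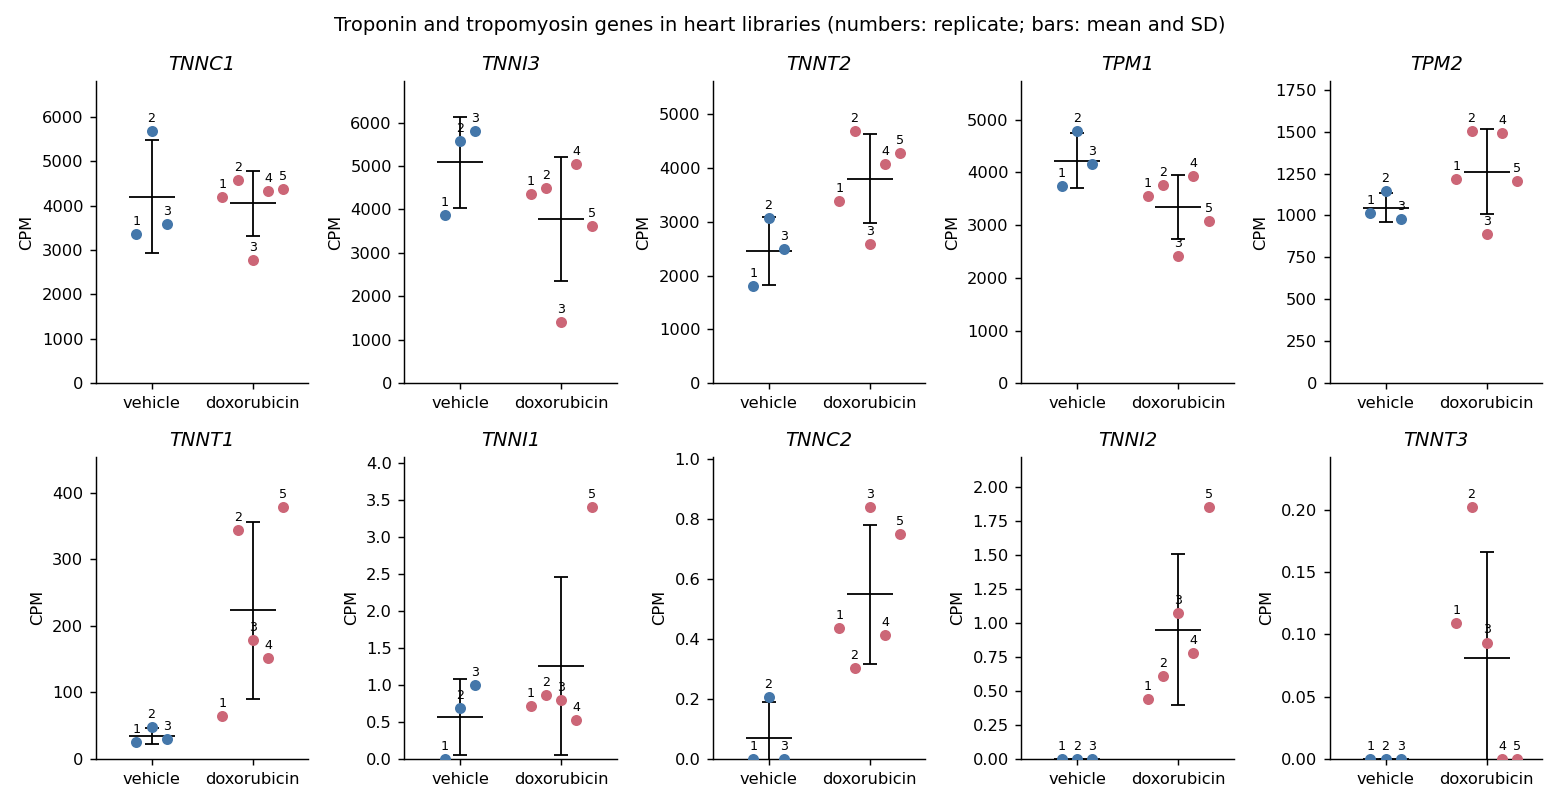
Each panel plots 1 gene in CPM on a linear axis from 0, with a point for each of the 3 vehicle and 5 doxorubicin libraries (numbers are replicate numbers) and a bar for the mean and SD. The 5 abundant genes in the upper row overlap between the groups, and in the lower row all 5 doxorubicin points of TNNT1, TNNC2 and TNNI2 lie above the vehicle points.

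TNNC1, the calcium-binding subunit of heart and slow muscle (chromosome 13, 34591571 to 34594320), was read at 3355, 5670 and 3583 CPM in vehicle 1 to 3. After doxorubicin it was read at 4198, 4570, 2771, 4331 and 4368 CPM in libraries 1 to 5. The groups overlapped, with doxorubicin 3 lowest of all and vehicle 2 highest. On the log2 scale the change was −0.05 (SE 0.27, adjusted p = 0.898 by edgeR), and its sign turned with library size only, with limma and without vehicle 2 or doxorubicin 3.

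TNNI3, the cardiac inhibitory subunit whose N-terminal extension is phosphorylated under adrenergic drive (chromosome 6, 59366828 to 59377490), was read at 3870, 5583 and 5798 CPM in vehicle. After doxorubicin the values were 4345, 4503, 1402, 5043 and 3626 CPM. Doxorubicin 3 had by far the lowest level and doxorubicin 5 lay just below vehicle 1, while doxorubicin 1, 2 and 4 lay within the vehicle range. TNNI3 did not pass (log2 −0.43, SE 0.38, adjusted p = 0.423 by edgeR) and was negative under every alternative run, from −0.86 to −0.09.

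TNNT2, the cardiac subunit that ties troponin to tropomyosin (chromosome 10, 23749528 to 23759696), was read at 1805, 3062 and 2489 CPM in vehicle. After doxorubicin it was read at 3385, 4681, 2587, 4082 and 4279 CPM. All doxorubicin libraries except the third lay above the highest vehicle library. The log2 fold change was 0.63 (SE 0.28), which did not pass (unadjusted p = 0.0465, adjusted p = 0.116 by edgeR). It passed with DESeq2 (adjusted p = 0.0371, 18.9% of all genes called higher), with limma (0.00401, 27.1% higher) and with library size only (0.0210, 27.4% higher), and over all alternatives the adjusted p ran from 0.00401 to 0.356.

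Among the cardiac genes, TNNT2 was higher relative to TNNC1 in all doxorubicin libraries. Per length, each library held 318, 320 and 411 TNNT2 per 1000 TNNC1 in vehicle 1 to 3, and 477, 606, 552, 558 and 580 in doxorubicin 1 to 5. All 5 doxorubicin values lay above all 3 vehicle values, with means of 350 ± 53.2 and 555 ± 48.2 (SD, n = 3 and n = 5). This ratio within a library does not depend on the scaling between libraries. The gap between the fitted log2 fold changes of TNNT2 and TNNC1 was 0.69, and 0.56 to 0.80 over the alternatives. With the gene density trend of each library taken out it was 0.77. TNNT2 per TNNC1 was chosen among the possible pairs with earlier results known and was not tested.

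TNNT1, the slow skeletal troponin T, rose in the heart after doxorubicin. This gene (chromosome 6, 59351445 to 59365584) was read at 24.7, 47.4 and 30.1 CPM in vehicle 1 to 3. In doxorubicin 1 to 5 it was read at 64.0, 344, 179, 151 and 378 CPM. Every doxorubicin library lay above every vehicle library, and the doxorubicin values spread widely, with library 1 nearest to vehicle and libraries 2 and 5 highest. The change was 6.55-fold (log2 2.71, SE 0.57, adjusted p = 0.0125 by edgeR). Without vehicle 1 or vehicle 3 it did not pass (adjusted p = 0.0663 and 0.0629), where 2.16% and 2.19% of all genes were called higher, and over the alternatives the adjusted p ran from 1.26e-06 to 0.0663. Without doxorubicin 5 the gene still passed, and its log2 fold change was between 2.25 and 3.08 under all alternatives run.

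TNNT1 remained a small part of the troponin T messages. Per length, there were 4.81, 5.44 and 4.24 TNNT1 per 1000 TNNT2 in vehicle 1 to 3, against 6.63, 25.8, 24.3, 12.98 and 31.0 in doxorubicin 1 to 5. TNNT1 and TNNT3 together made 0.481% ± 0.0593 of troponin T in vehicle and 1.97% ± 0.966 after doxorubicin (SD, n = 3 and n = 5), with no overlap. TNNT2 therefore made up the bulk of troponin T in each of the 8 libraries. In plain counts the shares were 1.36% ± 0.166 and 5.38% ± 2.58, and for a single library the 95% Wilson interval, which covers counting error only, was at its widest 6.28% to 6.68%, in doxorubicin 3.

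TNNT1 and TNNI3 are neighbours on the same strand, 1243 bases apart with no listed gene between them. Their changes lay 3.14 apart on the log2 scale, and 2.85 to 3.43 apart over all alternatives. TNNT2 and TNNI1 likewise lie on chromosome 10 with 28582 bases and LAD1 between them, and TNNI2 and TNNT3 on chromosome 2 with 43942 bases and 2 listed genes between them. TNNI2 was read in all doxorubicin libraries and TNNT3 in 3 of them.

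**Figure D2:**
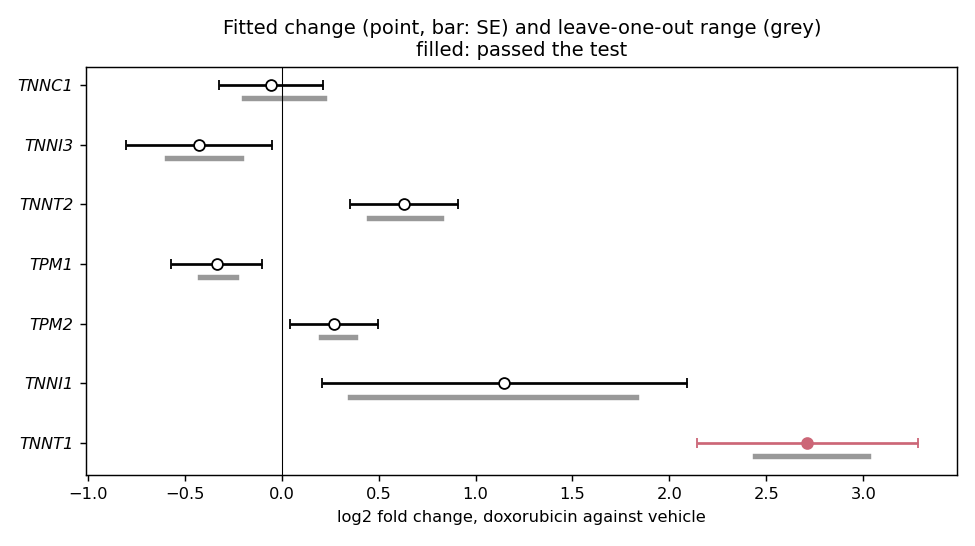
Points are the log2 fold changes of doxorubicin against vehicle for 7 tested members, black bars are their SE, and grey bars span the values when each of the 8 libraries was left out in turn. TNNT1 is the filled point at 2.71, the other 6 did not pass, and TNNI2 is not drawn because its vehicle libraries had no reads.

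TNNI2, the fast skeletal troponin I (chromosome 2, 1251566 to 1253883), had 0 reads in each vehicle library and 8, 12, 23, 15 and 37 reads in doxorubicin 1 to 5. Doxorubicin 5 had the most, as it had for TNNT1. Against a floor of 3 counts over the vehicle libraries together, the summed reads over summed TMM-adjusted library sizes were 13.6-fold higher after doxorubicin. That value leaves out the counting error of the 95 doxorubicin reads, so it is no lower bound. The adjusted p of TNNI2 was 0.0109 by edgeR. The gene passed in each of the 17 alternatives in which it was tested, with adjusted p up to 0.0482, and was not tested where more than 1 CPM in 3 libraries was asked. These runs share the same 0 vehicle reads, and the gene entered the main test through its doxorubicin libraries alone. They are therefore not separate support. The highest TNNI2 level, 1.85 CPM in doxorubicin 5, compares with 3626 CPM of TNNI3 in the same library before any division by length.

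TNNI1, the slow skeletal and fetal cardiac troponin I (chromosome 10, 23788279 to 23800554), had 0, 10 and 14 reads in vehicle and 13, 17, 17, 10 and 68 reads after doxorubicin. Apart from doxorubicin 5, the doxorubicin libraries lay within the vehicle range in CPM. The fitted log2 fold change was 1.15 (SE 0.94, adjusted p = 0.387 by edgeR), and it did not pass in any alternative (adjusted p = 0.253 to 0.764). Without doxorubicin 5 it was 0.35. Whether it changed less than TNNT1, the other slow skeletal member, was not tested.

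TNNC2, the fast skeletal troponin C (chromosome 17, 48025621 to 48026762), had 0, 3 and 0 reads in vehicle and 8, 6, 18, 8 and 15 reads after doxorubicin. With 3 vehicle reads in all, the ratio of the levels, summed in the same way, was 7.88 (95% exact interval 2.56 to 39.4, counting error only). It was too low for the main filter, and without a filter its adjusted p was 0.0887 by edgeR, with 12.5% of all genes called. Leaving out 1 vehicle library also let it through the filter, and it did not pass without vehicle 1 (0.174) or vehicle 3 (0.169). It passed without vehicle 2 (0.0337), which held all its vehicle reads, so that the vehicle group was then at 0. The gene overlaps LOC110257453 on the opposite strand, which had 87 reads over the 8 libraries, and the reads of the pair cannot be told apart where counting did not use the strand. TNNT3, the fast skeletal troponin T (chromosome 2, 1297826 to 1316865), had 0 reads in vehicle and 2, 4, 2, 0 and 0 after doxorubicin. In sum this was 1.15-fold the same floor of 3 vehicle counts, with the counting error of the 8 doxorubicin reads left out. Its adjusted p without a filter was 0.241 by edgeR.

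The skeletal forms of troponin I and troponin C stayed at traces of their subunit. Per length, TNNI1 and TNNI2 together made 0, 0.0560% and 0.0773% of troponin I in vehicle and 0.154%, 0.194%, 0.862%, 0.170% and 0.825% in doxorubicin 1 to 5. The groups did not overlap, and libraries 3 and 5 stood above the others. TNNI1 alone did overlap, at 0 to 0.774 per 1000 TNNI3 in vehicle and 0.464 to 4.23 after doxorubicin. The lack of overlap thus rests on TNNI2, which had no vehicle read. In library 3 the TNNI3 level was also the lowest. In plain counts the shares were 0.00986% ± 0.00886 in vehicle and 0.0725% ± 0.0608 after doxorubicin (SD, n = 3 and n = 5), again with no overlap, and library 3 was at 0.133%. The values per length rest on the 5440 bases listed for TNNI3. TNNC2 made 0.00126% ± 0.00218 of troponin C in vehicle and 0.0153% ± 0.00978 after doxorubicin (SD, n = 3 and n = 5). In vehicle 1 no skeletal troponin I read was found among 54165, which allows a plain count share of up to 0.00554%.

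Some other skeletal muscle markers were also read more often in the doxorubicin libraries, and MYH2, RYR1 and ACTN3 were picked from them after their values were seen. MYH2, the fast myosin of type IIA fibres, had 0 reads in vehicle and 0, 15, 6, 1 and 31 after doxorubicin. RYR1, the skeletal calcium release channel, had 1, 0 and 0 reads in vehicle and 11, 9, 28, 1 and 10 after doxorubicin. ACTN3, the actinin of fast fibres, had 0 in vehicle and 0, 1, 3, 3 and 8. MYBPC1 and CACNA1S, with few reads, had lower means after doxorubicin. They were at 0.0943 and 0.190 CPM in vehicle and at 0.0296 and 0.124 CPM after doxorubicin. The sum of all 17 found markers overlapped between the groups, at 94.8 to 129 CPM in vehicle and 36.5 to 127 CPM after doxorubicin. That sum was carried mainly by MYL1, a light chain at 92.3 ± 16.7 CPM in vehicle libraries and 36.6 ± 31.2 CPM in doxorubicin libraries (SD, n = 3 and n = 5). None of the 3 markers with enough reads to be tested passed, although MYL1 passed as lower without doxorubicin 3 (adjusted p = 0.0140 by edgeR) and RYR1 as higher without a filter (0.0447). MYL1 also passed as lower with DESeq2 (0.0368) and with limma (0.00160), where CASQ1, the skeletal calsequestrin, passed as higher (0.0141). The part of skeletal muscle cells in the TNNI2, TNNC2 and TNNT1 reads was not tested.

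**Figure D3:**
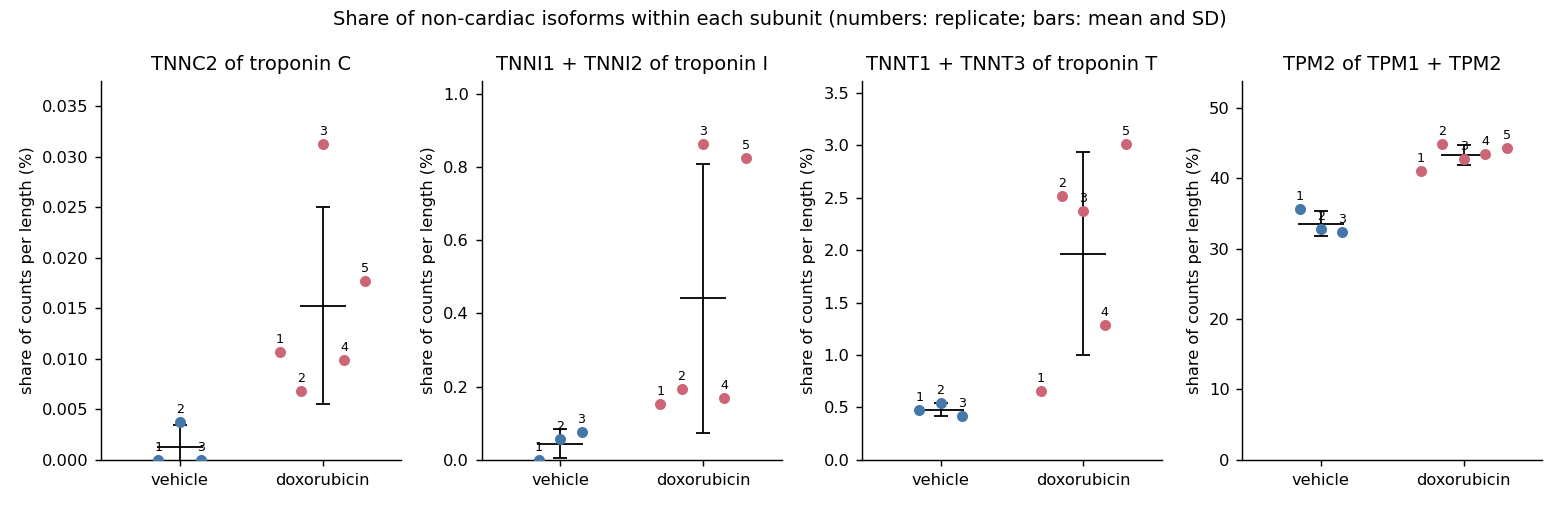
Each panel gives, as percent of counts per length on an axis from 0, the share of the named isoforms within 1 subunit in each library, with the mean and SD as bars. The doxorubicin points lie above the vehicle points in all 4 panels. The highest point is at 0.86% for troponin I, 3.0% for troponin T and about 45% for tropomyosin.

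TPM1 and TPM2 did not pass, but the share of TPM2 was higher in all doxorubicin libraries than in any vehicle library. TPM1, the alpha form (chromosome 1, 108986981 to 109016090), was read at 3735, 4779 and 4163 CPM in vehicle and at 3553, 3755, 2416, 3938 and 3081 CPM after doxorubicin. TPM2, the beta form (chromosome 1, 236402249 to 236410390), was read at 1017, 1145 and 977 CPM in vehicle and at 1219, 1501, 888, 1492 and 1208 CPM after doxorubicin. For TPM1 3 of 5 doxorubicin libraries lay below all vehicle libraries, and for TPM2 4 of 5 lay above them. The log2 fold changes were −0.34 for TPM1 (SE 0.23, adjusted p = 0.305 by edgeR) and 0.27 for TPM2 (SE 0.23, adjusted p = 0.397). With library size only TPM1 was at 0.01 and TPM2 at 0.62, and TPM2 then passed (adjusted p = 0.0483, 27.4% of all genes higher). TPM2 passed with limma as well (0.0119, 27.1% higher).

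The share of TPM2 in the sum of both was 35.6%, 32.7% and 32.3% in vehicle 1 to 3 and 41.1%, 44.8%, 42.8%, 43.5% and 44.4% in doxorubicin 1 to 5, per length. The means were 33.6% ± 1.81 and 43.3% ± 1.47 (SD, n = 3 and n = 5), and the groups did not overlap. Doxorubicin 3, with the lowest level of both genes, had a share within the range of its group. In plain counts the shares were 19.9% ± 1.30 and 27.3% ± 1.19. The gap between the 2 fitted log2 changes was 0.61 and stayed between 0.50 and 0.68 in all other alternatives, but was 0.13 with the gene density trend of each library taken out, where TPM2 was at −0.0035. TPM1 has 7 protein-coding genes within 500 kb and TPM2 has 32, against a median of 13 for all tested genes.

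**Figure D4:**
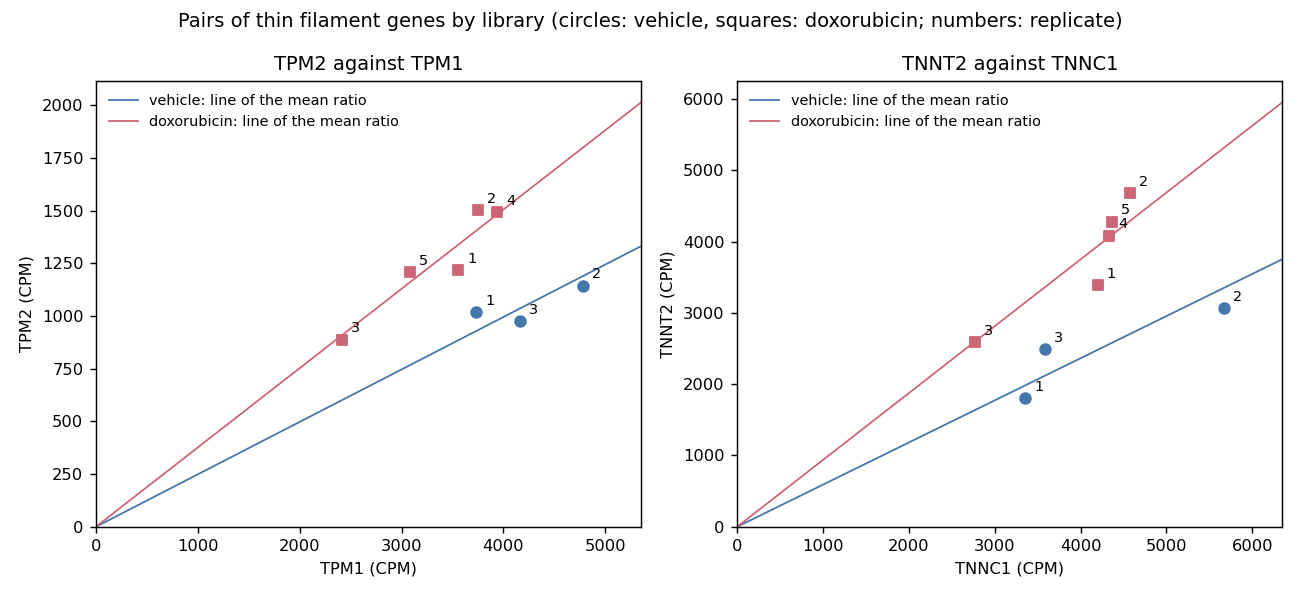
The left panel plots TPM2 against TPM1 and the right panel TNNT2 against TNNC1, both in CPM, with circles for vehicle, squares for doxorubicin, replicate numbers beside them and a line through 0 at each group's mean ratio. In both panels the doxorubicin libraries, including library 3 with low levels, lie nearer to the steeper line.

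The members also differed in how they varied over the 8 libraries. On log2 CPM, TNNI3 and TPM1 had a Pearson r of 0.93, and TNNT1 and TNNI2 had 0.90, while TNNT1 and TPM1 had −0.51. TNNT2 had 0.82 with TPM2 and 0.02 with TPM1. These values describe 8 libraries that share the split by treatment. Among the other tested genes at 10 CPM or more, the levels most like those of TNNI3 were NDUFA8, a complex I subunit (r = 0.97), ALDOA, an aldolase of glycolysis (0.96), and MRPL2, a protein of the mitochondrial ribosome (0.96). For TNNT2 they were LFNG, a glycosyltransferase acting on Notch (0.97), ILK, a kinase at integrin contacts (0.97), and C4H8orf82 (0.96). For TPM2 they were MOCS3 (0.96), VPS4A (0.93) and BCKDK (0.90), and for TNNI1 BTBD2, NCAPH2 and BOLA1 (0.96, 0.96 and 0.95).

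The tropomyosin genes outside the set, TPM3 and TPM4, are used in slow muscle and in non-muscle cells. TPM4 was read at 149, 138 and 164 CPM in vehicle and at 182, 262, 364, 201 and 867 CPM after doxorubicin. All doxorubicin values were above vehicle and doxorubicin 5 was far above the rest, but TPM4 did not pass (log2 1.32, SE 0.50, adjusted p = 0.0801 by edgeR). It passed without doxorubicin 5 (log2 0.75, adjusted p = 0.0372) and without doxorubicin 1 (0.0477). TPM3 was at 72.1 ± 11.8 and 87.7 ± 22.4 CPM (adjusted p = 0.352). Fibroblast markers (9 of 9 found, none at 0) summed to 1374 to 1591 CPM in vehicle and to 2615 to 31674 CPM after doxorubicin, with library 5 highest. Of the 9, 5 rose and 1 fell, where 13.6% of all tested genes were called higher and 11.3% lower. None of these fibroblast calls was made without any 1 of the vehicle libraries. Without vehicle 1, 2 or 3, 649, 1969 and 712 genes were called in place of 3714. Smooth muscle markers (8 of 8 found, none at 0) summed to 581 to 1074 CPM and 683 to 4334 CPM, again highest in library 5, and CNN1 alone rose, a call lost without any 1 of the vehicle libraries. Their part in the TPM2 and TPM4 values was not tested.

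Atrial markers were higher in sum as well, though in doxorubicin 1 barely so. The 5 atrial markers, none at 0, summed to 38.6 to 45.0 CPM in vehicle and to 45.3, 144, 93.8, 158 and 179 CPM in doxorubicin 1 to 5, with library 1 lowest and library 5 highest as for TNNT1. MYL4, an atrial and fetal light chain, rose 3.98-fold (adjusted p = 0.0425 by edgeR), and the other 4 did not pass, where 13.6% of all tested genes were called higher. MYL4 was low, at 0.498 to 1.87 CPM in vehicle and 1.57 to 7.10 CPM after doxorubicin, and the groups overlapped. The MYL4 call was lost without vehicle 1 or 3, without doxorubicin 3 or 4 and with the replicate block. MYL7, the atrial regulatory light chain, was at 5.55 to 9.64 CPM in vehicle. After doxorubicin it was at 122, 106 and 127 CPM in libraries 2, 4 and 5 and at 5.51 CPM or less in libraries 1 and 3. In library 3 most of the sum was NPPA, at 58.9 CPM. NR2F2 was lower on average after doxorubicin (23.3 ± 2.47 and 20.3 ± 3.29 CPM, SD), and SLN overlapped between the groups. The ventricular markers summed to 11439 to 16911 CPM in vehicle and 8356 to 15275 CPM after doxorubicin. The part of the sampled heart region in the TNNT1 values was not tested.

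Other genes of the thin filament mostly did not pass. Of 18 found of 19 listed, 0 rose, 1 fell and 17 did not pass, with a median log2 fold change of −0.12 against 0.02 for all tested genes. Of all tested genes 13.6% were called higher and 11.3% lower. CFL2, the muscle cofilin that severs actin filaments, fell from 675 ± 36.0 to 347 ± 17.0 CPM (log2 −0.96, SE 0.16, adjusted p = 0.00689 by edgeR) and passed whichever library was left out. Next by p after TPM4 were NEBL, the cardiac nebulette (−0.67, SE 0.30, adjusted p = 0.124), and NEB, the nebulin of skeletal muscle (1.09, SE 0.56, adjusted p = 0.171). NEB passed without doxorubicin 5 (1.36, adjusted p = 0.0105). The actins ACTC1 and ACTA1 were at 3125 ± 164 and 11644 ± 1568 CPM in vehicle and at 2032 ± 1060 and 10637 ± 2288 CPM after doxorubicin (adjusted p = 0.259 and 0.739).

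Among 28 regulators of muscle isoforms 24 were tested, and 0 rose, 4 fell and 20 did not pass (median −0.05). Of all tested genes 13.6% were called higher and 11.3% lower. MBNL2, of a family of splicing factors known to act on troponin T transcripts, fell from 95.2 ± 9.69 to 50.9 ± 1.68 CPM (log2 −0.90, SE 0.13, adjusted p = 0.00525 by edgeR) and passed whichever library was left out. SOX6, a repressor of slow muscle genes, fell by 0.70 on the log2 scale (SE 0.18, adjusted p = 0.0224). The RNA-binding protein QKI fell by 0.64 (SE 0.19, adjusted p = 0.0359) and PROX1, a homeobox factor of heart muscle, by 0.75 (SE 0.24, adjusted p = 0.0485). These last 3 did not pass with library size only or with the density trend taken out, nor without vehicle 1 or vehicle 3, where their adjusted p reached 0.182 (PROX1 without vehicle 1). With library size only 5 regulators were higher and 1 lower, where 27.4% of all genes were higher, 3.34% lower and their median was 0.38. Without doxorubicin 5, 4 regulators were higher and 6 lower, where 2472 and 2265 of 14687 genes were. SRF, a factor that drives muscle genes, was then higher (log2 0.84, adjusted p = 0.00543 by edgeR). With the replicate block 4 were higher and 3 lower, where 13.6% of all genes were higher and 10.7% lower. With DESeq2 3 were higher and 6 lower (18.9% and 14.2% of all genes), and with limma 7 and 8 (27.1% and 27.0%). Troponin T splice forms were not analysed here.

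Kinases and phosphatases that act on the thin filament changed in both directions. Of 16, 3 rose, 5 fell and 8 did not pass (median −0.14), where 13.6% of all tested genes were called higher and 11.3% lower. PPP1CA, a catalytic subunit of protein phosphatase 1, rose from 42.7 ± 9.16 to 79.6 ± 5.04 CPM (adjusted p = 0.00876 by edgeR), while PPP2CA, the catalytic subunit of protein phosphatase 2A, fell from 192 ± 5.20 to 133 ± 7.57 CPM (0.0212). PRKACB, a catalytic subunit of protein kinase A, which phosphorylates cardiac troponin I, fell from 566 ± 28.9 to 263 ± 97.0 CPM (0.0232). The PRKACB call was lost with library size only, without vehicle 1, 2 or 3 and without doxorubicin 2. PRKACA, another catalytic subunit of this kinase, was at 103 ± 1.96 and 128 ± 38.0 CPM and did not pass (0.355). CAMK2D, the main calcium-calmodulin kinase of the heart, fell from 622 ± 73.3 to 257 ± 99.97 CPM (0.0246). Calls over all genes also fell when a library was left out, from 3714 of 14938. Without vehicle 3 none of the 16 passed (712 of 15457 genes called). Without vehicle 1 there was 1 higher and 0 lower (649 of 15477), and without vehicle 2 there were 2 and 1 (1969 of 15480). Without doxorubicin 2, 3 or 4 there was 1 higher with 2, 3 or 3 lower (2519 of 14708, 2582 of 14652 and 3414 of 14812). With library size only there were 3 higher and 0 lower (27.4% and 3.34% of all genes). With the replicate block there were 1 and 4 (13.6% and 10.7%), and without a filter 2 and 3 (12.5% called in all).

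**Figure D5:**
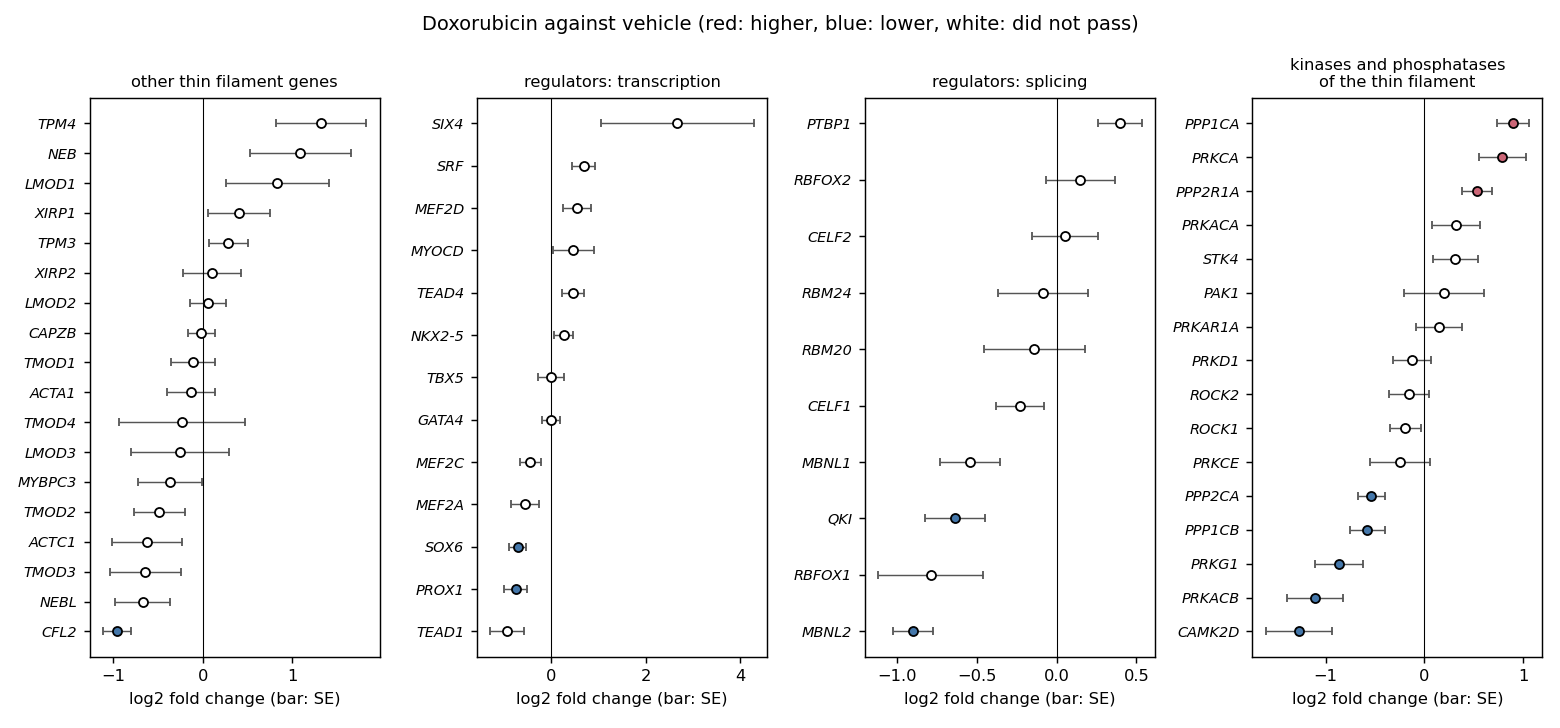
Points are the log2 fold changes of the tested genes in 4 lists, with SE as bars, red for genes called higher, blue for lower and white for those that did not pass. CFL2 and MBNL2 are the lowest in their panels, the kinase and phosphatase panel has 3 red and 5 blue points, and genes with no vehicle reads are not drawn.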

How the data were processed

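Messenger RNA of heart tissue from 3 vehicle and 5 doxorubicin samples was sequenced. The authors deposited raw counts per gene, 1 column per library, with a gene model length that per the file headers is listed beside them as another value. The aligner, counter and use of strand were not given in the sources used here. All 10 members matched RefSeq entries of Sscrofa11.1 by identifier, start and end.

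In edgeR 4.0.16 (R 4.3.3), genes passing filterByExpr (minimum count 10, minimum total 15) were scaled by TMM and tested for treatment alone with robust quasi-likelihood, two-sided. SE were derived from F. No pairing of libraries by replicate number was seen, and none was used in the main fit. Isoform shares are counts over listed length.

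Alternatives were RLE factors, library size only, TMM from genes other than mitochondrial, haemoglobin and the top 20, other filters, the replicate block, limma 3.58.1 voom with sample weights, DESeq2 1.42.0 and leaving out each library. Fits with a lowess trend (span 0.3) of each library on gene density (coding genes in 500 kb on either side) or on gene length taken out were chosen after seeing the data. Members and lists were chosen with earlier results of these data known. All members are named, with up to 4 genes of smallest p per list and the 3 genes most like TNNI3, TNNT2, TNNI1 and TPM2. TPM3, the actins, SRF, PPP1CB, PPP2R1A, PRKACA, LOC110257453 and the skeletal and atrial markers given with values were named after their values were seen. Figures used matplotlib 3.10.9.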

Additional observations from a re-analysis of the deposited data

Results flagged for a closer look

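TNNC1 was at 2771 CPM in doxorubicin 3, far below the next lowest library of its group at 4198 CPM, and TNNI1 was at 3.40 CPM in doxorubicin 5, far above the next highest at 0.859 CPM. Both were picked because the gap to the nearest library exceeded Dixon's 95% critical value for 5 samples (0.71). In all, 14 groups of 5 doxorubicin values were examined in this way, and chance flags about 1 in 20.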

How the results depend on the processing

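The count of members higher after doxorubicin was 2, and became 4 with library size only (adding TNNT2 and TPM2), 4 with limma voom (the same additions), 3 with DESeq2 (adding TNNT2) and 1 where more than 1 CPM in 3 libraries was asked, since TNNI2 was then not tested. Leaving out 1 library gave 1 to 3, with TNNC2 added without vehicle 2, where its vehicle reads were 0, but not without vehicle 1 or 3. No member was lower in any alternative. Sign turned for TNNC1 with library size only (0.30), with limma (0.20), and without vehicle 2 (0.22) or doxorubicin 3 (0.06; −0.20 to 0.22 over all single libraries left out). It turned for TPM1 with library size only (0.014) and for TPM2 once the density trend was taken out (−0.0035). Unscaled library sizes moved the median of all tested genes from 0.02 to 0.38 (log2). The cause of these changes was not tested, apart from the smaller number of genes under the stricter filter. In plain counts the doxorubicin minus vehicle difference was 4.02 percentage points for troponin T (1.49 per length), 0.0626 for troponin I (0.397 per length) and 7.42 for tropomyosin (9.75 per length). Same-numbered libraries had correlations of deviations of 0.04, −0.01 and −0.01. No pairing by number was seen in these values, and so few libraries cannot settle whether there was any. With the replicate block 2 members were higher and 0 lower, and 3638 genes passed in place of 3714. Among the called genes named, the block ended the calls of QKI, MYL4, PPP1CB and PPP2R1A. Depth limits TNNC2, TNNI1, TNNI2 and TNNT3, with 0 to 68 reads per library.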
